A study of Mus musculus with 90 samples.

Results

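*Fos*, *Jun*, *Junb*, *Atf3*, *Egr1*, *Ier2* and *Zfp36* are immediate early genes, and *Id1*, *Id2* and *Id3* encode inhibitors of DNA binding. Their transcripts were followed in mouse liver across diet, GR genotype of the hepatocytes, time of day and corticosterone. The 10 members were taken by their symbols, through the Ensembl gene IDs, from the 27654 genes listed in each of 4 deposited tables of estimated counts. Of the 10, 7 belong to the immediate early genes and 3 to the Id genes. Immediate early genes are switched on within minutes of a stimulus by factors that the cell already holds, and their transcripts are short-lived. In liver they are known to respond to food, fasting, hormones and injury, and several encode subunits of AP-1, a transcription factor built from Fos and Jun proteins. Id proteins have a helix-loop-helix region but no DNA-binding region, so that they capture the E proteins (*Tcf3*, *Tcf4*, *Tcf12*) in dimers that do not bind DNA, and the Id genes are known targets of BMP signals through SMAD proteins.

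Bulk RNA-seq of polyadenylated RNA covered 90 livers of C57BL/6J males, 1 mouse per library, 20 to 21 weeks old by the study's animal table. The corticosterone mice are described as 12 weeks old before handling and injections began, and which age holds for them at collection is not settled. The diet comparison held 3 WT mice on caloric restriction and 3 WT mice on control diet at ZT12, where ZT counts the hours from lights-on and lights go off at ZT12. The time series held WT mice with a floxed GR gene (GRfl/fl) and GR LKO mice, which carry the same floxed gene with Alb-Cre, at 6 time points 4 h apart, as 36 livers on caloric restriction (3 per genotype and time) and 42 on control diet (3 or 4 per genotype and time). In the corticosterone experiment, 3 WT mice received corticosterone (CORT) by daily injection over a week and 3 received vehicle, all under night-restricted feeding and collected at ZT12. Caloric restriction meant 40% less food, given at ZT12. Control mice ate freely and then only at night in the last week, although the titles of the 3 controls in the diet comparison say AL and their treatment label says night-restricted. The Alb promoter drives Cre in hepatocytes, so that other liver cells keep GR and still add to each value.

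*Nr3c1*, the GR gene, followed the genotype labels in every library. Its level, in CPM (counts scaled to library size, after TMM within each table), ran from 61.8 to 117 (median 87.3) in the 52 WT livers and from 16.2 to 32.2 (median 23.8) in the 38 GR LKO livers. No GR LKO liver reached the lowest WT liver. At ZT12 on caloric restriction *Nr3c1* stood at 102, 98 and 104 CPM in WT and 31, 32.2 and 30.8 CPM in GR LKO mice (log2 fold change -1.70 ± 0.07 SE, edgeR adjusted p = 8.33e-05). On control diet the values were 83.3, 87.9, 75.5 and 89.1 CPM in WT and 18.7, 20.9, 20.4 and 25.2 CPM in GR LKO mice (log2 fold change -1.98 ± 0.10 SE, edgeR adjusted p = 5.05e-05).

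Summed counts per library ran from 10057544 to 17089004 in the time series on control diet and from 14235473 to 20788575 on caloric restriction. The diet comparison was deeper, at 36442195 to 39492146, and the corticosterone experiment held 13739631 to 16077943. Depth sets the precision for the 2 rarest members. *Fos* had a median of 8 counts per library in the time series, and *Atf3* was at 0 in 36 of 90 libraries. Of the 7 hepatocyte markers none was at 0 in any library, their summed level had a median of 97988 CPM, and *Alb* had the highest mean over the 90 livers. In every marker list below, the most abundant gene is the one with the highest mean CPM over all 90 livers. It was not picked anew in each group.

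The diet comparison asked how caloric restriction changes WT liver at ZT12, just before the daily meal. Of the 10 members, 8 rose and none fell, among 13062 genes of which 47.1% changed (3073 higher and 3082 lower) by the quasi-likelihood F test of edgeR, adjusted after Benjamini and Hochberg over all genes tested. All 6 members that encode AP-1, ATF or Egr factors or the mRNA-decay factor rose, as did *Id1* and *Id3*, while *Ier2* and *Id2* did not pass. In bulk samples, fewer cells of a type and less RNA per cell cannot be told apart.

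Among the AP-1 subunits, *Fos* (ENSMUSG00000021250, chr12:85473890-85477273, plus strand, all positions on mm10), whose protein binds DNA only together with a Jun protein, stood at 0.624, 0.523 and 0.475 CPM in the 3 control livers and 1.31, 1.48 and 1.75 CPM in the 3 restricted livers. Every restricted liver lay above every control liver, and *Fos* rose 2.78-fold (log2 fold change 1.47 ± 0.23 SE, edgeR adjusted p = 0.00248). *Jun* (ENSMUSG00000052684, chr4:95049034-95052222, minus strand), the partner that can also form dimers with itself, measured 9.31, 5.15 and 6.23 CPM on control diet and 10.7, 15 and 32.1 CPM on caloric restriction. The groups did not overlap, although the third restricted liver stood far above the other 2 (log2 fold change 1.48 ± 0.42 SE, edgeR adjusted p = 0.024). Without control replicate 2 or 3 the adjusted p of *Jun* was 0.0838 or 0.074, in a range of 0.000351 to 0.0838 over the alternatives run on these livers. *Junb* (ENSMUSG00000052837, chr8:84974484-84978718, minus strand), a Jun family member that activates more weakly than *Jun* at many sites, gave 9.71, 6.24 and 6.66 CPM in control and 11.6, 16 and 13.2 CPM in restricted livers. Again no control liver reached a restricted liver (log2 fold change 0.85 ± 0.20 SE, edgeR adjusted p = 0.0108). *Junb* overlaps *Prdx2* on the other strand, and whether counting used the strand is not given in the sources used here, so that reads in the overlap are uncertain.

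*Atf3* (ENSMUSG00000026628, chr1:191170296-191218039, minus strand), a stress-induced member of the ATF/CREB family that can repress as a homodimer, was at 0.699, 0 and 0 CPM in control and 1.68, 3.22 and 6.03 CPM in restricted livers. It was at 0 in 2 of 3 control livers and present in each restricted liver (log2 fold change 3.92 ± 1.07 SE, edgeR adjusted p = 0.0211), and its size is loosely fixed at these counts, with a 95% interval of 1.81 to 6.02 on the log2 scale. Without control replicate 1, the 1 control liver above 0, the log2 fold change of *Atf3* was 10.09, outside that interval. The adjusted p of *Atf3* was 0.15 in DESeq2, 0.0557 with the replicate number as a block, and 0.0565, 0.0506 and 0.0661 without control replicate 2, control replicate 3 and restricted replicate 3 (range over alternatives 0.00697 to 0.15). *Egr1* (ENSMUSG00000038418, chr18:34859823-34864984, plus strand), a zinc finger activator, measured 2.52, 1.99 and 1.74 CPM in control and 6.66, 9.20 and 9.58 CPM in restricted livers. Its lowest restricted liver stood well above its highest control liver, and *Egr1* rose 4.05-fold (log2 fold change 2.02 ± 0.20 SE, edgeR adjusted p = 0.000483).

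*Ier2* (ENSMUSG00000053560, chr8:84661331-84662852, minus strand), which encodes a short-lived nuclear protein, was at 18.6, 14 and 15.4 CPM in control and 19, 19.6 and 19.9 CPM in restricted livers. The groups came close without overlapping, and the difference did not pass (log2 fold change 0.28 ± 0.11 SE, edgeR adjusted p = 0.0761, 95% interval 0.06 to 0.50). It passed without control replicate 1, at an adjusted p of 0.018 in a range of 0.018 to 0.214 over the alternatives run on these livers. *Zfp36* (ENSMUSG00000044786, chr7:28376784-28380253, minus strand), which encodes tristetraprolin, a protein that binds AU-rich stretches of mRNAs and speeds their decay, measured 38.5, 32.9 and 25 CPM on control diet and 58.7, 56.7 and 63.7 CPM on caloric restriction. All 3 restricted livers lay above the controls (log2 fold change 0.89 ± 0.15 SE, edgeR adjusted p = 0.00322).

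Of the Id genes, *Id1* (ENSMUSG00000042745, chr2:152736251-152737410, plus strand), a hepatocyte target of BMP6, stood at 3.19, 3.76 and 3.49 CPM in control and 15.6, 18.4 and 13.5 CPM in restricted livers. The gap between the groups was wider than either group, and *Id1* rose 4.54-fold (log2 fold change 2.18 ± 0.14 SE, edgeR adjusted p = 0.000129). *Id2* (ENSMUSG00000020644, chr12:25093799-25097140, minus strand), the Id gene with a described role in the circadian clock, gave 86.5, 91.1 and 62.1 CPM on control diet and 60.6, 99.4 and 90.7 CPM on caloric restriction. These values overlapped, and the difference was within the spread of the mice (log2 fold change 0.06 ± 0.21 SE, edgeR adjusted p = 0.833, 95% interval -0.35 to 0.48). *Id3* (ENSMUSG00000007872, chr4:136143497-136145755, plus strand), which also binds E proteins, measured 22.4, 21.3 and 19 CPM in control and 27.3, 38.5 and 31.5 CPM in restricted livers. No restricted liver fell within the control range (log2 fold change 0.63 ± 0.13 SE, edgeR adjusted p = 0.00802).

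The WT livers of the time series give a separate look at diet at ZT12. There each diet was deposited as a table of its own with a separate run of library numbers. This is taken here as a batch, although no title names one, and batch and diet cannot be told apart. In that comparison 3 of the 8 members tested passed, all 3 lower on caloric restriction, against 38.1% of all genes, and *Fos* and *Atf3* were under the count filter. *Junb* went the other way, with 22.2, 14.7, 22.9 and 21.4 CPM on control diet and 5.12, 4.95 and 4.52 CPM on caloric restriction (log2 fold change -2.08, edgeR adjusted p = 0.000225). *Id3* was also lower on caloric restriction there, at 28.3, 16.4 and 22.5 CPM against 40.1, 36.8, 75.4 and 53 CPM (log2 fold change -1.22, edgeR adjusted p = 0.0111). *Ier2* was lower in every restricted liver there, at 12.8, 10.04 and 11.4 CPM against 21.5, 20.1, 25.4 and 34.7 CPM (log2 fold change -1.18, edgeR adjusted p = 0.00299). *Id1*, at 8.48, 5.02 and 6.50 CPM against 7.60, 3.23, 9.43 and 8.80 CPM, overlapped between the diets (log2 fold change -0.14, edgeR adjusted p = 0.771). *Jun* overlapped between the diets as well, at 14.8, 18.3 and 12.3 CPM against 15.5, 7.06, 13.2 and 18.4 CPM (log2 fold change 0.14, edgeR adjusted p = 0.73). Nor did *Egr1* (log2 fold change 1.19, edgeR adjusted p = 0.146) or *Zfp36* (log2 fold change 0.42, edgeR adjusted p = 0.102) pass there. *Junb* and *Id3* thus passed with opposite signs in the 2 sets of livers, *Ier2* passed only in the time series, and no rise of *Jun*, *Egr1*, *Zfp36* or *Id1* passed there. No alternative was run within the time-series livers. Over the 10 alternatives run within the diet comparison the adjusted p ranged over 0.000422 to 0.0411 for *Junb*, 0.000228 to 0.0296 for *Id3*, 7.33e-32 to 0.00136 for *Id1*, 1.2e-15 to 0.00391 for *Egr1* and 3.31e-07 to 0.0153 for *Zfp36*, all higher on caloric restriction. The cause was not tested.

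Markers of several cell types differed between the diets in the same time-series livers, where 38.1% of all genes changed. Endothelial markers were higher on caloric restriction in 6 of 7 genes, with sums of 207, 186 and 227 CPM against 125, 103, 107 and 121 CPM, *Eng* the most abundant and none at 0. Stellate markers summed to 247, 299 and 282 CPM against 131, 109, 93.4 and 127 CPM, with 3 of 6 higher and 1 lower, *Dcn* the most abundant and none at 0. Hepatocyte markers summed to 165871, 168081 and 172975 CPM against 83255, 97683, 82130 and 92622 CPM, with 4 of 7 higher and 1 lower, *Alb* the most abundant and none at 0. Lymphocyte sums were 0.561, 0.767 and 0.621 CPM against 2.72, 1.503, 1.03 and 1.60 CPM, with *Cd4* the most abundant, 2 to 4 of 6 markers at 0 and the 1 tested lower. Of 8 Kupffer and myeloid markers 1 was higher, and of 5 tested erythrocyte markers 1 was lower. The part of these cells in the falls of *Junb*, *Id3* and *Ier2* was not tested.

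Other immediate early genes moved with the members in the diet comparison. Of 45 further genes of this kind, 40 were tested, 25 rose and 3 fell (median log2 fold change 0.99), where 47.1% of all genes changed. The largest increases were in *Gadd45b* (4.00), a stress sensor of the growth arrest family, *Nr4a1* (3.90, and 1.91 without the restricted liver at 29.8 CPM, the other 2 being at 2.47 and 3.46 CPM), an orphan nuclear receptor, *Dusp1* (2.84), a phosphatase of MAP kinases, and *Ccn2* (2.67), a secreted matrix protein. In the ZT12 WT livers of the time series 38 of these genes were tested, with 13 higher and 9 lower on caloric restriction, against 38.1% of all genes. *Dusp1* was at -0.56 on the log2 scale there. *Myc* (-2.35), *Phlda1* (-2.21) and *Pim1* (-1.04) fell in the diet comparison. Among 16 kinases and factors that act upstream of immediate early genes, 6 rose and 2 fell, close to the share of all genes, with *Crem* (1.43), *Creb1* (0.87) and *Mrtfb* (0.68) the largest increases and *Rps6ka1* (-0.49) and *Mapk3* (-0.38) the decreases, while *Srf* itself belongs to both lists.

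Genes of BMP and SMAD signaling also changed in the diet comparison. Of 26 tested, 17 rose and 2 fell (median log2 fold change 0.51), where 47.1% of all genes changed. The targets *Atoh8* (3.52), *Smad7* (1.26) and *Smad6* (0.87) rose, as did *Hamp2* (2.95) and *Hamp* (0.95), hepcidin genes so alike in sequence that reads may be split between them. The ligand gene *Bmp7* (-1.36) and the co-receptor gene *Neo1* (-0.25) fell. In the ZT12 WT livers of the time series the fold changes of *Atoh8* (-0.89), *Smad7* (-0.12), *Smad6* (-1.74) and *Hamp* (-0.34) had the opposite sign, and that of *Hamp2* had the same (1.76). Of the 26 genes of the list tested there, 11 were higher and 4 lower, against 38.1% of all genes. Of the genes of the 3 E proteins that Id proteins capture, *Tcf12* rose (0.27) and *Tcf3* fell (-0.33). Heat-shock genes, another stress-responsive class, rose in 7 of 9 cases in the diet comparison, led by *Hspa1a* (1.56) and *Hsph1* (1.39). In the time-series livers 2 of the 9 were higher and 1 lower, near the 38.1% of all genes that changed there. *Hspa1a* (-0.71), *Hspa1b* (-0.91), *Hspb1* (-0.44) and *Hsph1* (-0.13) had the opposite sign in these livers.

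Markers of endothelial cells were also higher on caloric restriction in the diet comparison, in 5 of 7 genes, where 47.1% of all genes changed. Their summed level was 268, 267 and 304 CPM against 161, 203 and 207 CPM, with *Eng* the most abundant and none at 0. Stellate cell markers summed to 299, 269.9 and 300.4 CPM against 214, 222 and 181 CPM, with 3 of 6 higher and 1 lower, *Dcn* the most abundant and none at 0. Of 8 Kupffer and myeloid markers none passed (sums of 83.3, 129.5 and 122 CPM in restricted against 119, 104 and 127 CPM in control livers). Hepatocyte markers summed to 158908, 159995 and 165802 CPM in restricted and 84222, 84944 and 90473 CPM in control livers, with 4 of 7 higher, *Alb* the most abundant and none at 0. Lymphocyte markers summed to 0.939, 1.14 and 1.01 CPM against 4.79, 4.99 and 4.41 CPM, with 1 of 3 tested lower (*Cd4*, the most abundant) and a marker at 0 in 1 restricted liver. Neutrophil markers, all under the count filter, summed to 0.171, 0.234 and 0.273 CPM against 0.324, 0.653 and 0.660 CPM, with *S100a9* the most abundant and 1 to 3 of 5 at 0. Cholangiocyte sums overlapped (58.5, 38.3 and 38.6 CPM against 48.8, 46.6 and 47.6 CPM), with 2 of 4 tested higher (*Sox9* and *Krt19*), *Spp1* the most abundant and 1 of 5 at 0 in every liver. Erythrocyte sums overlapped too (349, 207 and 589 CPM against 463, 1088 and 644 CPM), with 1 of 5 tested lower (*Alas2*), *Hbb-bs* the most abundant and a marker at 0 in 1 restricted liver. The part of these cells in the rise of *Id1*, *Id3* and the immediate early genes was not tested.

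**Figure D1:**
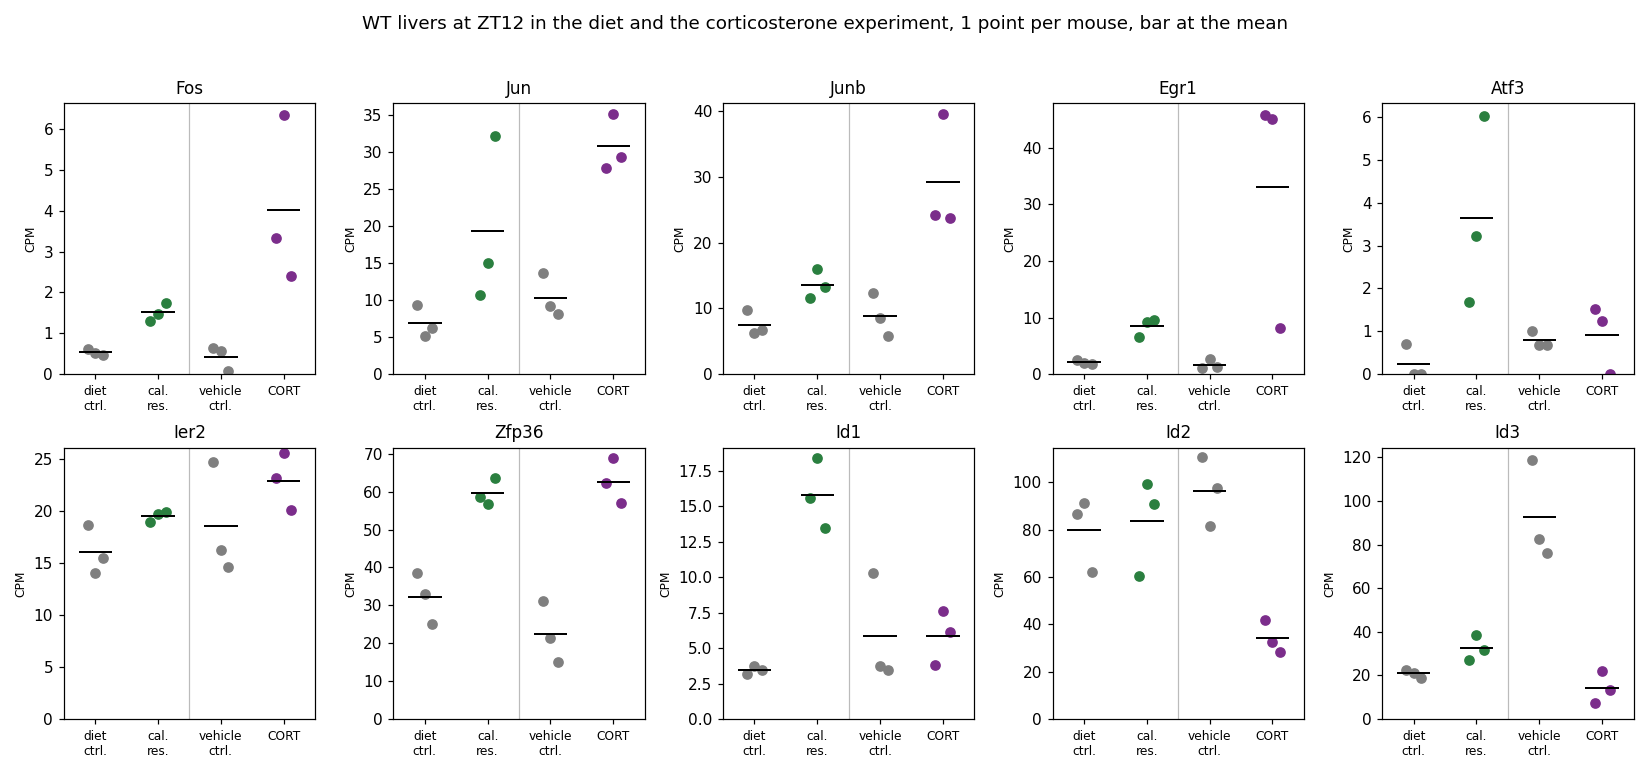
CPM of the 10 members (vertical axis of each panel, separate scale per gene) at ZT12 in WT mice on control diet, on caloric restriction, given vehicle and given CORT, with 1 point per mouse and a bar at the mean of 3 mice. *Fos*, *Jun*, *Junb*, *Egr1* and *Zfp36* lie higher in both treated groups than in their own controls without overlap, whereas *Id2* and *Id3* lie lower only in the CORT group, where *Id2* measured 41.6, 32.4 and 28.2 CPM. The share of all genes without overlap was not counted.

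Corticosterone, the main glucocorticoid of mice, was given to ask what the hormone does without caloric restriction. Of the 10 members, 7 changed, 5 immediate early genes upward and 2 Id genes downward, against 8.11% of the 11523 genes tested. Their median log2 fold change was 0.89, against -0.01 over all genes tested. The known GR targets *Fkbp5* (2.63) and *Tsc22d3* (1.48) rose in the same livers, and *Nr3c1* did not pass (log2 fold change -0.06 ± 0.13 SE, edgeR adjusted p = 0.808).

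*Fos* stood at 0.647, 0.559 and 0.0684 CPM after vehicle and 3.34, 6.33 and 2.40 CPM after CORT. Each CORT liver was above each vehicle liver, and the lowest vehicle value is a single count (log2 fold change 3.22 ± 0.66 SE, edgeR adjusted p = 0.0293). Leaving out any 1 of the 6 mice moved the adjusted p of *Fos* to between 0.0513 and 0.105 (range over alternatives 7.12e-05 to 0.105). *Jun* measured 13.7, 9.14 and 8.07 CPM after vehicle and 27.8, 35.1 and 29.4 CPM after CORT, again without overlap (log2 fold change 1.58 ± 0.21 SE, edgeR adjusted p = 0.00771). For *Junb* the values were 12.3, 8.51 and 5.81 CPM and 24.2, 39.6 and 23.8 CPM, with every CORT liver above the vehicle livers (log2 fold change 1.72 ± 0.31 SE, edgeR adjusted p = 0.0206).

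*Atf3* did not follow the AP-1 subunits. It was at 1.01, 0.684 and 0.684 CPM after vehicle and 1.52, 1.25 and 0 CPM after CORT, values that overlapped (log2 fold change 0.22 ± 0.92 SE, edgeR adjusted p = 0.913). *Egr1* had the largest log2 fold change of the 10, from 1.08, 2.61 and 1.3 CPM after vehicle to 45.7, 45.1 and 8.14 CPM after CORT. The third CORT liver stood far below the other 2 and still above all vehicle livers (log2 fold change 4.28 ± 0.72 SE, edgeR adjusted p = 0.0172). Without vehicle replicate 1, 2 or 3 its adjusted p was 0.0665, 0.0666 or 0.0703 (range over alternatives 4.38e-06 to 0.0703).

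*Ier2*, at 24.7, 16.3 and 14.6 CPM after vehicle and 23.1, 25.5 and 20.1 CPM after CORT, overlapped between the groups (log2 fold change 0.30 ± 0.21 SE, edgeR adjusted p = 0.406). *Zfp36* rose from 31.1, 21.4 and 15.2 CPM after vehicle to 62.2, 69 and 56.9 CPM after CORT, so that the lowest CORT liver was well above the highest vehicle liver (log2 fold change 1.47 ± 0.24 SE, edgeR adjusted p = 0.0154). Leaving out vehicle replicate 2 ended the calls of *Jun* (0.0501, range 1.54e-09 to 0.0501), *Junb* (0.0915, range 1.97e-06 to 0.0915) and *Zfp36* (0.077, range 1.07e-07 to 0.077) as well as those of *Fos* and *Egr1*, so that 2 members passed. Leaving out vehicle replicate 3 ended that of *Junb* too (0.0564). These are adjusted p from edgeR, and no fold change of these 5 genes turned its direction.

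The Id genes split. *Id1* measured 10.3, 3.73 and 3.49 CPM after vehicle and 3.79, 7.65 and 6.16 CPM after CORT, overlapping because vehicle replicate 1 was the highest of the 6 (log2 fold change 0.02 ± 0.46 SE, edgeR adjusted p = 0.989). *Id2* fell from 111, 81.3 and 97.6 CPM to 41.6, 32.4 and 28.2 CPM, all 3 CORT livers below all 3 vehicle livers (log2 fold change -1.50 ± 0.17 SE, edgeR adjusted p = 0.0049). *Id3* fell from 119, 82.5 and 76.3 CPM to 7.58, 21.8 and 13.3 CPM, again with no overlap (log2 fold change -2.69 ± 0.37 SE, edgeR adjusted p = 0.00917). The falls of *Id2* and *Id3* passed under every alternative run (adjusted p 4.51e-13 to 0.0243 and 3.27e-14 to 0.0407).

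Set side by side, the vehicle livers held *Id3* at 119, 82.5 and 76.3 CPM while the controls of the diet comparison held 22.4, 21.3 and 19 CPM, but these values come from tables scaled separately and were not tested against each other. The same holds for the treated groups, in which *Fos*, *Jun*, *Junb*, *Egr1* and *Zfp36* were each above their own controls.

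Among the 45 further immediate early genes, 37 were tested in the corticosterone experiment, 16 rose and 3 fell (median log2 fold change 1.00), where 8.11% of all genes changed. *Maff* (4.31), a small Maf factor, *Gadd45b* (4.28), *Gadd45g* (3.52) and *Cebpd* (2.67) rose most, with *Dusp1* (2.40) and the clock gene *Per1* (2.04) also higher. *Pim1* (-1.87), *Plk2* (-1.62) and *Ccn1* (-1.49) fell. None of the 15 tested kinases and factors upstream of immediate early genes and none of the 3 E protein genes passed. Of 25 BMP and SMAD genes, *Hamp2* fell (-1.91) and no other passed, and of 9 heat-shock genes *Hsp90aa1* (-1.33) and *Hspe1* (-0.41) fell. Endothelial markers summed to 105, 119 and 126 CPM after CORT and 129.9, 143 and 162 CPM after vehicle, with 1 of 7 lower (*Kdr*), *Eng* the most abundant and none at 0. Stellate markers summed to 129, 159 and 134 CPM after CORT and 131, 156 and 164 CPM after vehicle, with 1 of 6 lower (*Lrat*), *Dcn* the most abundant and none at 0. Kupffer and myeloid markers summed to 87.4, 137 and 114 CPM and 68.7, 86.2 and 96.5 CPM, with 1 of 8 higher (*Marco*), *Clec4f* the most abundant and none at 0. Neutrophil markers summed to 2.28, 1.98 and 1.57 CPM after CORT and 0.0719, 0.621 and 0.615 CPM after vehicle, with *S100a9* the most abundant, 2 to 4 of 5 at 0 and the 1 tested not passing. Sums of lymphocyte markers had a mean of 1.04 CPM after CORT (0.753 to 1.44 CPM) and 2.77 CPM after vehicle (1.15 to 4.37 CPM). These ranges overlapped, and the 1 of 6 lymphocyte markers tested did not pass. Erythrocyte markers summed to 327, 558 and 301 CPM and 699, 632 and 785 CPM, with none of 5 tested passing, *Hbb-bs* the most abundant and 1 of 6 at 0 in 1 liver of each group. Hepatocyte sums overlapped (101747, 102789 and 93054 CPM and 101858, 95192 and 100126 CPM), with 2 of 7 higher (*Tat* and *Hnf4a*), *Alb* the most abundant and none at 0. Of 4 tested cholangiocyte markers 1 was lower (*Sox9*), with overlapping sums of 24.4, 46.5 and 26.6 CPM and 35.4, 26 and 38.8 CPM, *Spp1* the most abundant and 1 of 5 at 0 in every liver. The part of these cells in the rise of the immediate early genes and the falls of *Id2* and *Id3* was not tested.

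Loss of GR in hepatocytes was compared at ZT12 within each diet. On caloric restriction 3 of 10 members changed, against 15.3% of 11759 genes, with *Zfp36* lower and *Junb* and *Id3* higher in GR LKO mice. On control diet 2 of 8 tested members changed, against 2.08% of 11428 genes, with *Zfp36* lower and *Id2* higher. *Fos* and *Atf3* were under the count filter on control diet. *Zfp36* thus fell with loss of GR on both diets, and it had risen with CORT in WT mice, which are other animals in another table. The GR targets *Fkbp5* (-2.84 and -2.29) and *Tsc22d3* (-1.86 and -1.51) fell in GR LKO mice on caloric restriction and on control diet, respectively.

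*Fos* on caloric restriction was at 0.771, 0.558 and 0.565 CPM in WT and 0.173, 0.847 and 0.677 CPM in GR LKO mice, which overlapped (log2 fold change -0.16 ± 0.55 SE, edgeR adjusted p = 0.871). On control diet *Fos* stayed at or below 0.793 CPM in all 8 livers. *Jun* on caloric restriction measured 14.8, 18.3 and 12.3 CPM in WT and 8.03, 7.68 and 11.6 CPM in GR LKO mice. The GR LKO livers were all below the WT livers, but the difference missed the threshold (log2 fold change -0.74 ± 0.21 SE, edgeR adjusted p = 0.0556), and it passed in DESeq2 (0.0274) and without GR LKO replicate 3 (0.0406), in a range of 0.0274 to 0.152. On control diet *Jun* was at 15.5, 7.06, 13.2 and 18.4 CPM in WT and 18.6, 9.05, 8.21 and 6.87 CPM in GR LKO mice, with overlap (log2 fold change -0.34 ± 0.36 SE, edgeR adjusted p = 0.789).

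*Junb* rose on caloric restriction, from 5.12, 4.95 and 4.52 CPM in WT to 6.18, 10.6 and 9.42 CPM in GR LKO mice. All GR LKO livers were above the tightly grouped WT livers (log2 fold change 0.83 ± 0.22 SE, edgeR adjusted p = 0.0441), but the call sits near the threshold. Its adjusted p ranged over 0.0177 to 0.13 and exceeded 0.05 without a filter on low counts (0.0565) and when any single WT mouse or GR LKO replicate 2 or 3 was left out, and with the replicate number as a block (0.0872, 0.104, 0.13, 0.115, 0.127 and 0.104). On control diet *Junb* measured 22.2, 14.7, 22.9 and 21.4 CPM in WT and 32.2, 22.5, 20.9 and 16.4 CPM in GR LKO mice, with overlap (log2 fold change 0.17 ± 0.21 SE, edgeR adjusted p = 0.826). The difference between the genotype effects of the 2 diets did not pass for *Junb* (interaction log2 0.68 ± 0.33 SE, edgeR adjusted p = 0.382).

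*Atf3* on caloric restriction was at 0, 2.93 and 2.54 CPM in WT and 0, 0 and 2.09 CPM in GR LKO mice, with zeros on both sides (log2 fold change -1.42 ± 1.54 SE, edgeR adjusted p = 0.579). *Egr1* gave 18.2, 6.97 and 6.55 CPM in WT and 2.19, 9.38 and 4.13 CPM in GR LKO mice, overlapping (log2 fold change -1.02 ± 0.59 SE, edgeR adjusted p = 0.285). *Ier2*, at 12.8, 10.04 and 11.4 CPM and 5.54, 10.8 and 9.36 CPM, overlapped as well (log2 fold change -0.43 ± 0.24 SE, edgeR adjusted p = 0.282). On control diet neither *Egr1* (log2 fold change -0.75 ± 0.50 SE, edgeR adjusted p = 0.624) nor *Ier2* (log2 fold change -0.18 ± 0.18 SE, edgeR adjusted p = 0.788) passed.

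*Zfp36* on caloric restriction fell from 40.3, 51.4 and 42.2 CPM in WT to 21.9, 27.1 and 29.3 CPM in GR LKO mice, every GR LKO liver below every WT liver (log2 fold change -0.78 ± 0.14 SE, edgeR adjusted p = 0.0114). On control diet it fell from 44.9, 28, 31.8 and 27 CPM to 16.3, 15, 15.5 and 20.9 CPM, again with no overlap (log2 fold change -0.96 ± 0.18 SE, edgeR adjusted p = 0.0281). The 2 effects did not differ beyond their error (interaction log2 0.20 ± 0.25 SE, 95% interval -0.29 to 0.68, edgeR adjusted p = 0.793). The call on caloric restriction held under every alternative run (5.73e-05 to 0.0398), whereas on control diet it was lost without WT replicate 2 (0.0516) or 3 (0.0695) and without GR LKO replicate 1 (0.0876), 2 (0.0833) or 3 (0.0772) and with the replicate number as a block (0.0904), in a range of 6.03e-05 to 0.0904.

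*Id1* did not pass on either diet. On caloric restriction it was at 8.48, 5.02 and 6.50 CPM in WT and 5.31, 7.17 and 9.79 CPM in GR LKO mice (log2 fold change 0.14 ± 0.28 SE, edgeR adjusted p = 0.764), and on control diet the values overlapped too (log2 fold change 0.56 ± 0.36 SE, edgeR adjusted p = 0.616). *Id2* on control diet measured 95.3, 60.5, 99.96 and 72.9 CPM in WT and 205, 236, 196 and 195 CPM in GR LKO mice. The 4 GR LKO livers lay close together and far above the WT livers (log2 fold change 1.33 ± 0.15 SE, edgeR adjusted p = 0.00301), and the call held under every alternative run (2.55e-14 to 0.0293). On caloric restriction *Id2* was at 124, 65.5 and 79.9 CPM in WT and 126, 137 and 163 CPM in GR LKO mice, groups that did not overlap but nearly touched because WT replicate 1 was high (log2 fold change 0.65 ± 0.23 SE, edgeR adjusted p = 0.105). It passed without that mouse (0.014) and in DESeq2 (0.0206), in a range of 0.014 to 0.262. The interaction of diet and genotype did not pass for *Id2* (log2 -0.67 ± 0.30 SE, 95% interval -1.25 to -0.09, edgeR adjusted p = 0.328).

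*Id3* on caloric restriction rose from 28.3, 16.4 and 22.5 CPM in WT to 47.5, 53.8 and 62.7 CPM in GR LKO mice, with no overlap (log2 fold change 1.28 ± 0.20 SE, edgeR adjusted p = 0.00764, range over alternatives 3.28e-08 to 0.032). On control diet it measured 40.1, 36.8, 75.4 and 53 CPM in WT and 98.9, 96.1, 95 and 99.9 CPM in GR LKO mice. The GR LKO livers were again all higher and closely grouped, and the difference narrowly missed the threshold (log2 fold change 0.92 ± 0.20 SE, edgeR adjusted p = 0.0536). It passed in DESeq2 (0.000477), without a filter (0.0476) and without WT replicate 3 (0.00466), in a range of 0.000477 to 0.129. The genotype effects on *Id3* did not differ between the diets beyond their error (interaction log2 0.37 ± 0.32 SE, 95% interval -0.25 to 0.99, edgeR adjusted p = 0.649).

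Of the 45 further immediate early genes, 38 were tested on caloric restriction, where 3 were higher and 6 lower in GR LKO mice at ZT12 (median log2 fold change -0.10) and 15.3% of all genes changed. *Gadd45g* (-3.31), *Gadd45b* (-1.74), *Maff* (-1.44) and *Per1* (-1.22) were the largest decreases and *Nr4a2* (2.98), *Nr4a1* (1.83) and *Zfp36l1* (0.45), a relative of *Zfp36*, the increases. On control diet *Cebpd* (-1.13) and *Per1* (-1.04) fell among 37 tested, with 2.08% of all genes changed. Away from ZT12, 7 of 37 passed at ZT16 on control diet (1.98% of all genes), where *Gadd45g* (2.17), *Phlda1* (2.05), *Ccn1* (1.51) and *Socs3* (1.40) were the largest of 6 increases and *Per1* (-1.39) the decrease. At ZT20 on control diet 3 of 38 passed (0.42% of all genes), which were *Myc* (3.05), *Phlda1* (2.16) and *Nfkbiz* (0.83). On caloric restriction *Cebpb* fell at ZT8 (-0.75, 1 of 38, 2.55% of all genes) and *Per1* (-1.31) and *Plk3* (-1.28) at ZT16 (2 of 37, 4.54%). Of these genes away from ZT12, *Per1* at ZT16 and *Myc* at ZT20, both on control diet, passed under every alternative run, and each of the others named was lost under some. At the other times none passed. Of the genes upstream of immediate early genes, *Rps6ka1* (1.24) and *Mapk3* (0.31) were higher and 4 were lower on caloric restriction at ZT12, among them *Elk1* (-0.59) and *Elk4* (-0.58). They were 6 of 16 tested. None of 15 passed on control diet at ZT12. Away from ZT12, 1 upstream gene was higher on caloric restriction at ZT8 (of 16 tested), ZT16 (of 15) and ZT20 (of 16). Of all genes 2.55%, 4.54% and 1.47% changed at these times. In the BMP and SMAD list *Hamp2* was higher at ZT12 on both diets (4.20 on caloric restriction, 2.82 on control diet), with *Smad6* (0.97) higher and *Smad9* (-0.89) lower on caloric restriction. That made 3 of 25 tested on caloric restriction (15.3% of all genes) and 1 of 26 on control diet (2.08%). On caloric restriction 1 gene of this list was also higher at ZT4 (0.69% of all genes), ZT8 (2.55%) and ZT16 (4.54%). On control diet 1 was higher at ZT8 (1.43%). At ZT12 no E protein gene passed on either diet, and of the heat-shock genes only *Hsph1* on control diet did (-1.47). At ZT8 on caloric restriction 1 of 8 tested heat-shock genes was lower (2.55% of all genes).

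Kupffer and myeloid markers moved with genotype on caloric restriction at ZT12, where 15.3% of all genes changed. They stood at summed levels of 120.3, 95 and 157 CPM in GR LKO and 44, 73.3 and 53.5 CPM in WT mice, with 3 of 8 higher (*Clec4f*, *Csf1r* and *Vsig4*), *Clec4f* the most abundant and none at 0. Endothelial markers summed to 264, 254 and 279 CPM in GR LKO and 207, 186 and 227 CPM in WT mice, with 1 of 7 higher (*Lyve1*), *Eng* the most abundant and none at 0. The part of these cells in the rise of *Id3* and *Junb* on caloric restriction was not tested. On control diet none of the 8 Kupffer and myeloid and none of the 7 endothelial markers passed, and the Kupffer and myeloid sums overlapped, at 49.6, 79.2, 58.9 and 75.2 CPM in GR LKO and 73.8, 54.3, 52.8 and 72.1 CPM in WT mice. Of the 7 hepatocyte markers 5 were lower in GR LKO mice on caloric restriction and 4 on control diet, among them *Tat* (-1.17 and -0.84), a known GR target. Single markers of other lists passed on caloric restriction, *Sox9* of 3 tested cholangiocyte markers (-1.64) and *Alas2* of 5 tested erythrocyte markers (1.25).

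**Figure D2:**
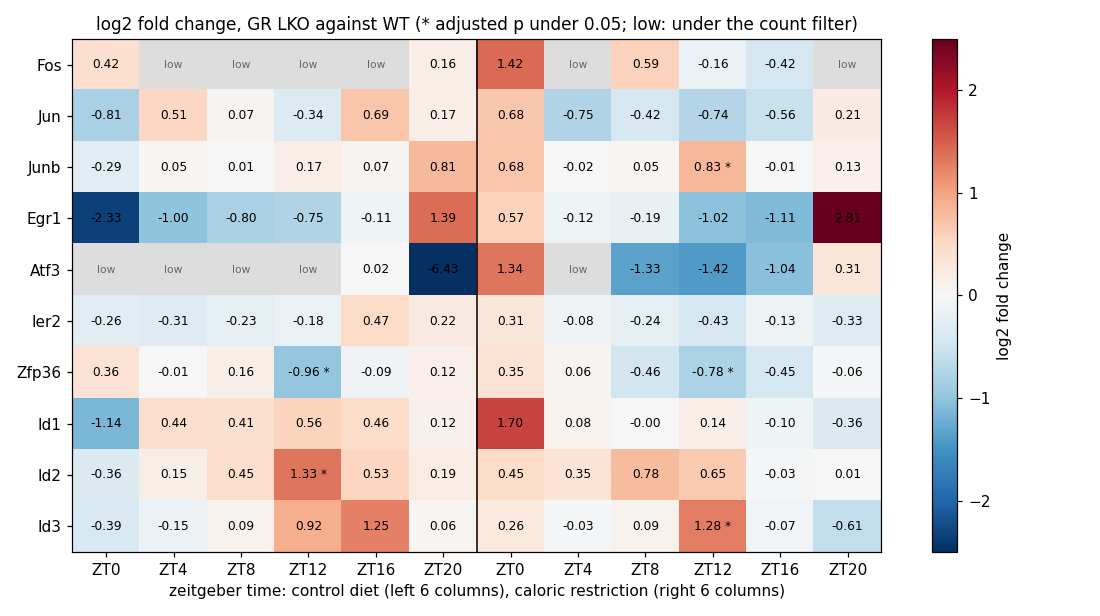
Log2 fold change of GR LKO against WT mice (colour) for the 10 members (rows) at 6 time points on control diet and on caloric restriction (columns). An asterisk marks an adjusted p under 0.05 and "low" a member under the count filter, and asterisks stand only at ZT12, for *Zfp36* on both diets, *Id2* on control diet and *Junb* and *Id3* on caloric restriction.

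Away from ZT12, no member passed in any of the 10 comparisons of genotype, with 3 or 4 mice per group, by edgeR. On caloric restriction at ZT0 0 of 10 members passed (0.502% of all genes, 2 members at an unadjusted p under 0.05, 0 in DESeq2). *Egr1* there was at 5.65, 88.2 and 15.7 CPM in WT and 135, 20.02 and 6.59 CPM in GR LKO mice, so that single mice of both genotypes stood several times above the rest. At ZT4 0 of 8 tested members passed (0.69% of all genes, 0 members at an unadjusted p under 0.05, 0 in DESeq2). At ZT8 0 of 10 passed (2.55% of all genes, 3 unadjusted), and in DESeq2 1 did, which was *Id2*. *Id2* at that time measured 92.1, 59.95 and 79.96 CPM in WT and 147, 142 and 109 CPM in GR LKO mice, higher in every GR LKO liver (log2 fold change 0.78 ± 0.17 SE, edgeR adjusted p = 0.0671, DESeq2 0.000501, range 0.000501 to 0.222).

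*Atf3* was highest in the series at ZT16 on caloric restriction, 4 h after the meal, where 0 of 10 members passed (4.54% of all genes, 2 unadjusted, 1 in DESeq2). It stood at 7.79, 5.25 and 9.16 CPM in WT and 3.64, 2.44 and 4.70 CPM in GR LKO mice. All 3 GR LKO livers were below the WT livers (log2 fold change -1.04 ± 0.29 SE, edgeR adjusted p = 0.0976, DESeq2 0.0297, replicate number as a block 0.0491, range 0.0297 to 0.244). *Zfp36* at ZT16 passed only without GR LKO replicate 1 (0.0481, as reported 0.25, range 0.0481 to 0.521). At ZT20 on caloric restriction 0 of 9 tested members passed (1.47% of all genes, 1 unadjusted, 1 in DESeq2). *Egr1* at ZT20 measured 4.34, 3.02 and 2.36 CPM in WT and 22.9, 38.9 and 5.11 CPM in GR LKO mice, without overlap but with GR LKO values spread widely (log2 fold change 2.81 ± 0.67 SE, edgeR adjusted p = 0.0975, DESeq2 0.0134, without GR LKO replicate 3 0.0143, range 0.0134 to 0.292).

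On control diet at ZT0 0 of 9 tested members passed (0.536% of all genes, 2 unadjusted, 0 in DESeq2). *Egr1* at ZT0 was at 23.2, 86.5 and 17.4 CPM in WT and 8.46, 1.42 and 15.1 CPM in GR LKO mice, with each GR LKO liver below each WT liver (log2 fold change -2.33 ± 0.83 SE, edgeR adjusted p = 0.258). At ZT4 0 of 8 passed (0.195% of all genes, 0 unadjusted, 0 in DESeq2). At ZT8 0 of 8 passed (1.43% of all genes, 2 unadjusted, 1 in DESeq2). *Id2* at ZT8 measured 151, 135, 148 and 105 CPM in WT and 176, 190.2, 158 and 210.5 CPM in GR LKO mice, all GR LKO livers higher (log2 fold change 0.45 ± 0.12 SE, edgeR adjusted p = 0.161, DESeq2 0.0239, range 0.0239 to 0.399).

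At ZT16 on control diet 0 of 9 tested members passed in edgeR (1.98% of all genes, 3 unadjusted), and in DESeq2 2 did, *Id2* and *Id3*. *Id2* was at 86.5, 136, 128 and 126 CPM in WT and 163, 196 and 159 CPM in GR LKO mice (log2 fold change 0.53 ± 0.16 SE, edgeR adjusted p = 0.144, DESeq2 0.0276, range 0.0276 to 0.363). *Id3* measured 41.9, 74.9, 71.7 and 79.97 CPM in WT and 131, 218 and 132 CPM in GR LKO mice (log2 fold change 1.25 ± 0.26 SE, edgeR adjusted p = 0.0549, DESeq2 4.08e-05, no filter on low counts 0.0459, range 4.08e-05 to 0.148). For both genes every GR LKO liver stood above every WT liver, but the share of all genes without overlap was not counted. At ZT20 0 of 10 passed (0.42% of all genes, 1 unadjusted, 0 in DESeq2), and *Atf3* was at 0 in all 3 GR LKO livers and at 0.887, 0.907, 1.53 and 0 CPM in WT livers.

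The interaction of diet and genotype asks at each time point whether the genotype effect differs between the diets. No member passed at any time point. At ZT0 0% of all genes and 0 of 10 members passed in edgeR (2 members unadjusted, 0 in DESeq2). The counts were the same at ZT4 (0% of all genes, 0 of 10, 0 in DESeq2) apart from 1 member unadjusted, and at ZT20 (0%, 0 of 10, 0 in DESeq2) with 0 unadjusted. ZT8 (0.081% of all genes) gave 0 of 9, with 1 unadjusted and 0 in DESeq2, and ZT12 (1.01%) gave 0 of 10, with 1 unadjusted and 0 in DESeq2. At ZT16 (0.234% of all genes) 0 of 10 passed, with 4 unadjusted and 0 in DESeq2. The smallest p of these 4 belonged to *Id3*, whose genotype effect was 1.25 on control diet and -0.07 on caloric restriction on the log2 scale (difference -1.32 ± 0.40 SE, edgeR adjusted p = 0.263).

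**Figure D3:**
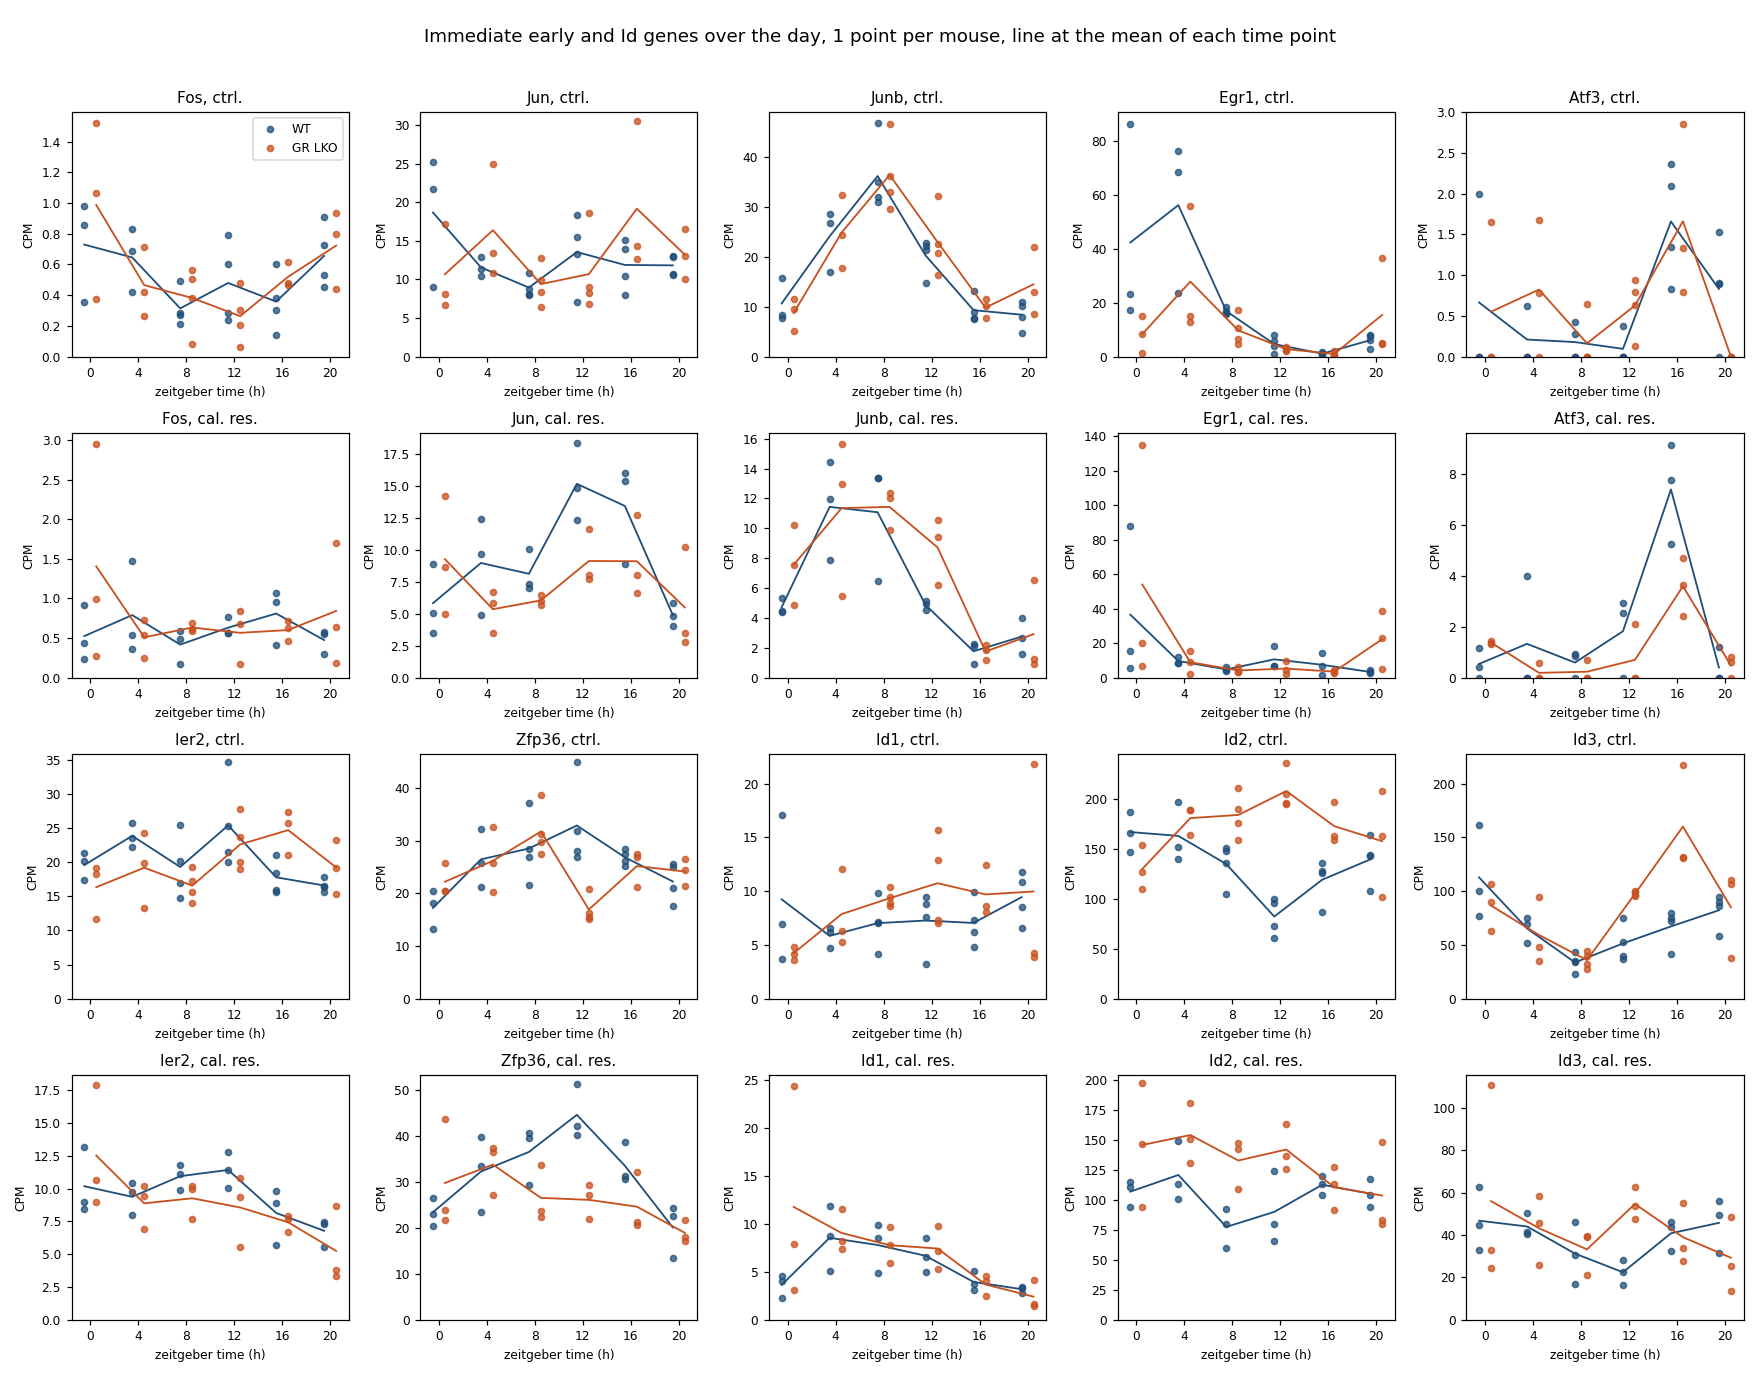
CPM of the 10 members (vertical axes, separate scale per gene) against time of day (ZT0 to ZT20, horizontal axes) on control diet and on caloric restriction, in WT (blue) and GR LKO (orange) mice, with 1 point per mouse and a line through the means. *Egr1* on control diet in WT mice runs from a mean of 56.2 CPM at ZT4 to 1.05 CPM at ZT16, and *Id2* in GR LKO mice on control diet stands highest at ZT12, when WT mice on that diet are lowest.

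In WT mice the members changed with time of day at about the share of all genes. In the F test over 6 time points, 6 of 10 members changed with time on control diet, against 50% of all genes. On caloric restriction 6 of 10 did, against 64.3%. Among GR LKO mice 4 of 10 changed on control diet (42% of all genes). On caloric restriction 3 of 10 did in GR LKO mice (60.5% of all genes). The member counts are thus to be read against a tissue in which 42 to 64.3% of all genes changed over the day. JTK_CYCLE, which looks for a cosine of 24 h, gave 3 members in WT and 1 in GR LKO mice on caloric restriction, and 5 and 3 on control diet. Of all genes it called 3786 in WT and 3536 in GR LKO mice on caloric restriction, and 4448 and 3713 on control diet. It took every gene with a count, without the count filter of the F test. The totals therefore differ, and the shares of all genes were not counted for JTK_CYCLE.

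*Egr1* and *Junb* changed over the day in all 4 groups. *Egr1* on control diet in WT mice stood at 68.7, 23.6 and 76.3 CPM at ZT4 and 1.22, 0.956, 1.57 and 0.430 CPM at ZT16, a ratio of the means of 53.8 (edgeR adjusted p = 2.48e-06). Every ZT4 liver lay far above every ZT16 liver. In GR LKO mice on control diet *Egr1* was at 55.8, 12.7 and 15 CPM at ZT4 and 1.91, 0.556 and 0.391 CPM at ZT16 (edgeR adjusted p = 0.00517). On caloric restriction the highest mean was at ZT0 in both genotypes (WT 36.5 CPM, GR LKO 53.9 CPM), where WT replicate 2 and GR LKO replicate 1 carry most of it. Without replicate 2 at every time point the adjusted p of *Egr1* in WT mice on caloric restriction moved from 0.0116 to 0.187, without replicate 3 to 0.0693 and with JTK_CYCLE to 1 (range 0.00103 to 1). That in GR LKO mice moved from 0.0055 to 0.171 without replicate 1, 0.0534 without replicate 2 and 0.248 with JTK_CYCLE (range 9.14e-05 to 0.248).

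*Junb* had a smoother course. On control diet in WT mice it was at 35, 31, 32.1 and 47 CPM at ZT8 and 10.1, 7.84, 4.81 and 10.9 CPM at ZT20, with no overlap (edgeR adjusted p = 1.01e-05). In GR LKO mice on control diet the ZT8 values were 36.3, 29.7, 33.1 and 46.8 CPM, in the range of WT mice (edgeR adjusted p over time = 0.000395). On caloric restriction *Junb* in WT mice fell from 12, 14.4 and 7.89 CPM at ZT4 to 2.28, 2.13 and 0.881 CPM at ZT16 (edgeR adjusted p = 6.96e-05). The ratio of the highest to the lowest mean was 6.49 on caloric restriction and 4.32 on control diet. In GR LKO mice on caloric restriction it was 6.56 (edgeR adjusted p = 0.00431), a call lost without replicate 2 (0.0718) or replicate 3 (0.0706) of each time point (range 1.01e-05 to 0.0718).

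*Jun* changed over the day in WT mice on caloric restriction, from a mean of 15.1 CPM at ZT12 to 4.88 CPM at ZT20 (edgeR adjusted p = 0.00433, 0.292 in GR LKO mice), while the test of a difference in time course between the genotypes did not pass (0.384). Without replicate 1 of each time point its adjusted p was 0.0787, and with JTK_CYCLE 0.055 (range 2.22e-05 to 0.0787). On control diet *Jun* in WT mice did not pass (edgeR adjusted p = 0.0824, 0.022 without replicate 1, and 0.0517 in DESeq2). A difference in time course between the diets was not tested. *Fos* did not pass in any group and ranged from 0.0651 to 2.95 CPM over the 78 livers. *Atf3* did not pass either, although its mean was highest at ZT16 in all 4 groups (on caloric restriction 7.40 CPM for WT, 3.59 CPM for GR LKO mice, and 1.66 CPM in each genotype on control diet). *Ier2* changed in WT mice on both diets, with its highest mean at ZT12 and its lowest at ZT20 (25.4 and 16.6 CPM on control diet, edgeR adjusted p = 0.0243). On caloric restriction the means of *Ier2* were 11.4 and 6.78 CPM (edgeR adjusted p = 0.0373), a call lost with JTK_CYCLE (0.0859), with the replicate number as a block (0.0616) and without replicate 1, 2 or 3 (0.087, 0.129 and 0.14, range 0.016 to 0.14). On control diet it was lost with JTK_CYCLE (0.609) and without replicate 1 (0.098), 3 (0.104) or 4 (0.148), in a range of 0.00778 to 0.609.

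*Zfp36* in WT mice had its highest mean at ZT12 on both diets. On caloric restriction it ran from 44.6 CPM at ZT12 to 20.1 CPM at ZT20 (edgeR adjusted p = 0.00312), and on control diet from 32.9 CPM at ZT12 to 17.2 CPM at ZT0 (edgeR adjusted p = 0.0125, lost without replicate 1 at 0.0801 or 3 at 0.055, range 0.00121 to 0.0801). In GR LKO mice on control diet the course was turned around at that hour, with the lowest mean at ZT12 (16.9 CPM) and the highest at ZT8 (31.7 CPM, edgeR adjusted p = 0.00376). JTK_CYCLE did not call it (adjusted p = 1, range 3.33e-05 to 1). At ZT8 the genotypes overlapped, with 27, 21.7, 37.1 and 28.3 CPM in WT and 29.7, 31.2, 27.4 and 38.6 CPM in GR LKO mice.

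*Id2* and *Id3* changed over the day on control diet in WT mice. *Id2* ran from 166, 147 and 187 CPM at ZT0 to 95.3, 60.5, 99.96 and 72.9 CPM at ZT12 (edgeR adjusted p = 0.00208), with all ZT12 livers below all ZT0 livers. *Id2* in GR LKO mice went the other way, from 154, 109 and 127 CPM at ZT0 to 205, 236, 196 and 195 CPM at ZT12, a change over time that did not pass (edgeR adjusted p = 0.0797). *Id3* in WT mice ran from 100.2, 76.7 and 161 CPM at ZT0 to 34.1, 43.3, 22.5 and 34.6 CPM at ZT8 (edgeR adjusted p = 0.00108). Its lowest mean in GR LKO mice was at ZT8 as well (35.8 CPM) and its highest at ZT16 (159.9 CPM, edgeR adjusted p = 0.00165). *Id1* changed over the day on caloric restriction, in WT mice from 8.55 CPM at ZT4 to 3.19 CPM at ZT20 (edgeR adjusted p = 0.00488, 0.0717 without replicate 2, 0.101 without replicate 3, range 6.98e-05 to 0.101). In GR LKO mice on caloric restriction the highest mean of *Id1* was at ZT0 (11.8 CPM, from 7.85, 3.08 and 24.4 CPM), so that it rests on replicate 3 (edgeR adjusted p over time = 0.0266, 0.0738, 0.0514 and 0.113 without replicate 1, 2 and 3, 0.054 with the replicate number as a block, 0.206 with JTK_CYCLE, range 0.00185 to 0.206).

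Markers of other cells changed over the day in the same livers. On control diet in WT mice 7 of 7 endothelial, 8 of 8 Kupffer and myeloid and 5 of 6 stellate markers did, against 50% of all genes. Their sums at ZT0 and ZT12 were 204, 218 and 227 CPM and 125, 103, 107 and 121 CPM (endothelial, *Eng* the most abundant), 174, 125 and 231 CPM and 73.8, 54.3, 52.8 and 72.1 CPM (Kupffer and myeloid, *Clec4f* the most abundant), and 229, 247 and 356 CPM and 131, 109, 93.4 and 127 CPM (stellate, *Dcn* the most abundant), with no overlap and none at 0. On caloric restriction in WT mice 5 of 7 endothelial, 5 of 8 Kupffer and myeloid and 4 of 6 stellate markers changed, against 64.3% of all genes. Among GR LKO mice these counts were 6, 7 and 4 on control diet (42% of all genes) and 5, 0 and 4 on caloric restriction (60.5% of all genes). Hepatocyte markers changed in 4 of 7 cases on control diet (50% of all genes) and 6 of 7 on caloric restriction (64.3%) in WT mice. Erythrocyte markers changed in 5 of 5 tested cases in GR LKO mice and 1 of 5 in WT mice on caloric restriction. Their sums in GR LKO mice on that diet ran from 424 to 3859 CPM at ZT0. The part of these cells in the time courses of the members was not tested.

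A few calls over time appeared under an alternative, most of them when a replicate number was left out of every time point. On caloric restriction these were *Id2* without replicate 1 (0.04, range 0.04 to 1) and *Id3* without replicate 2 (0.0154, range 0.0154 to 0.439) in WT mice, and *Ier2* (0.0081, range 0.0081 to 1) and *Zfp36* (0.0258, range 0.0258 to 0.403) without replicate 1 in GR LKO mice. On control diet they were *Jun* in WT mice (0.022, range 0.022 to 1) and *Id1* in GR LKO mice (0.0166, range 0.0166 to 0.402), each without replicate 1. All are edgeR adjusted p, and *Id3* in WT mice on caloric restriction and *Id2* in GR LKO mice on control diet also passed in DESeq2 (0.0203 and 0.0303, the latter in a range of 0.0303 to 0.346), as did *Ier2* in GR LKO mice on caloric restriction (0.046).

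Whether the genotype effect itself varied over the day was tested as an interaction. On control diet 2 of 10 members passed, against 0.6% of all genes, and these were *Id2* (edgeR adjusted p = 0.00973) and *Zfp36* (edgeR adjusted p = 0.0399). The log2 fold change of *Id2* between GR LKO and WT mice went from -0.36 at ZT0 through 0.15 at ZT4, 0.45 at ZT8, 1.33 at ZT12 and 0.53 at ZT16 to 0.19 at ZT20. That of *Zfp36* was 0.36, -0.01, 0.16, -0.96, -0.09 and 0.12 at the same times, so that both genes had their largest difference at ZT12. Neither call held under every alternative. Leaving out a replicate number removes 6 or 12 of the 42 mice, and the number of all genes passing fell from 77 to between 5 and 48 in the same refits. The adjusted p of *Id2* was 0.051, 0.386 and 0.158 when replicate 1, 2 or 3 of each group was left out (range 1.3e-05 to 0.386). For *Zfp36* it was 0.399, 0.427, 0.181 and 0.0587 without replicate 1, 2, 3 and 4, 0.0596 without a filter on low counts and 0.0582 with the replicate number as a block (range 0.000946 to 0.427). On caloric restriction 0 of 10 members passed in edgeR (5.34% of all genes, 1 member unadjusted, 0 in DESeq2), with adjusted p of 0.206 for *Zfp36* and 0.411 for *Id2*.

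Members also varied together among mice of the same group. Over 90 livers, with each log2 CPM taken as its deviation from the mean of its group, *Junb* and *Ier2* had a Pearson correlation of 0.705 (Spearman 0.652, and 0.636 without 2 livers), the highest of the 45 pairs. The 2 livers left out for each pair were those farthest from the median in its first-named gene. Livers far out only in the other gene stayed in. *Id1* and *Id3* followed at 0.632 (Spearman 0.590, 0.582 without 2 livers), and *Jun* and *Junb* at 0.575 (Spearman 0.563, 0.512 without 2 livers). The lowest was that of *Egr1* and *Id3*, at -0.300 (Spearman -0.294, -0.262 without 2 livers). These are descriptions over livers that share dissection, library and depth, and no test was made of them. The liver whose 7 immediate early genes lay highest over its group was GR LKO replicate 1 on caloric restriction at ZT20, at a mean deviation of 0.95 log2 units, and for the 3 Id genes GR LKO replicate 3 on caloric restriction at ZT0 (1.11 log2 units). The latter liver held *Id1* at 24.4 CPM, *Id2* at 197 CPM and *Id3* at 111 CPM.

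Over the 24 group means of the time series, centred within each diet, the genes most like the mean profile of the 7 immediate early genes among 8865 compared were *Mprip* (Pearson correlation 0.617), a protein of the actin cytoskeleton, *Spred1* (0.608) and *Spry4* (0.600), inhibitors of the Ras and ERK pathway, *Mark2* (0.585), a kinase of cell polarity, and *Gm10443* (0.573). For the mean of the 3 Id genes they were *Ccn1* (0.722), a secreted matrix protein and itself an immediate early gene, *Zfp408* (0.677), *Wiz* (0.623), a gene without a symbol (0.607) and *Rex1bd* (0.605). The members fitted their own mean unequally, with correlations of 0.738 for *Jun*, 0.721 for *Ier2*, 0.658 for *Zfp36*, 0.400 for *Fos*, 0.354 for *Egr1*, 0.295 for *Junb* and 0.272 for *Atf3* among the immediate early genes. Among the Id genes they were 0.810 for *Id2*, 0.698 for *Id3* and 0.687 for *Id1*. The 24 means share mice of each group across all genes, and the correlations carry no test.

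*Fos*, *Jun* and *Junb* rose in the diet comparison and with CORT, although *Junb* was lower on caloric restriction in the time series, and their promoters are printed, as the 250 bases before the transcription start in RefSeq on GRCm38.p6. RefSeq windows were matched for 7 of the 10 members, the missing entries being those of *Egr1*, *Ier2* and *Id1*. Each window ran from 250 bases before to 50 after the start, and 11 motifs were searched on both strands. They were the CArG box bound by SRF (held by 1.63% of 32851 promoters), the cyclic AMP response element TGACGTCA (1.79%) and its core TGACG (20.8%), the Jun site TGACATCA (3.62%), the AP-1 site TGANTCA (7.81%) and the Egr site GCGNGGGCG (5.55%). The others were the glucocorticoid response element, which is AGAACA and TGTTCT with 3 bases of any kind between them (0.00913%) and its simpler receptor site TGTTCT (19%), the BMP response element TGGCGCC (4.03%), the FoxO site TGTTTAC (3.65%) and the E-box CACGTG (7.15%). TGACG lies within TGACGTCA and TGTTCT within the glucocorticoid response element. TGACG and TGACATCA were added after the printed sequences had been read. Capitals mark matches, at chr12:85473640-85473889 (plus strand) for *Fos*, chr4:95052223-95052472 (minus strand) for *Jun* and chr8:84978749-84978998 (minus strand) for *Junb*. For *Zfp36* 30 bases around its CArG box are shown, at chr7:28379267-28379296 (minus strand).
Fos: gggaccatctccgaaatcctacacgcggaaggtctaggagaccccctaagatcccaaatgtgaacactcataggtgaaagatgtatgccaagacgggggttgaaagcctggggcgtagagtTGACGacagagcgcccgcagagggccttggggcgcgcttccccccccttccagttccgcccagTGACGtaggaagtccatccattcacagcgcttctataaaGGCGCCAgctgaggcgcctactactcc
Jun: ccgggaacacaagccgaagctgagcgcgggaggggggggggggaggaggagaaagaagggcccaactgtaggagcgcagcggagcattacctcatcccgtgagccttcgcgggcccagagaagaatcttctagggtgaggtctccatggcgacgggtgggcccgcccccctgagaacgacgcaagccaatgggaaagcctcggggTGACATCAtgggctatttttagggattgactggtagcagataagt
Junb: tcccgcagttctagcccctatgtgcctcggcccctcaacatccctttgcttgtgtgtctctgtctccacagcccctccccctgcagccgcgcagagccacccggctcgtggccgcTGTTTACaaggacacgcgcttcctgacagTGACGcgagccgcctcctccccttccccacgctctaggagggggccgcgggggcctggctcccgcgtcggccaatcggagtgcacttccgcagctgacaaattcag
Zfp36: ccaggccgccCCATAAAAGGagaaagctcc

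The *Fos* window held TGACG starting 129 and 66 bases before the start, and GGCGCCA, the BMP response element read on the other strand, 27 bases before it. In *Jun* the match was TGACATCA, 45 bases before the start, and in *Junb* TGACG at 106 and TGTTTAC at 135 bases before it. *Zfp36* had its CArG box 58 bases and an Egr site 105 bases before the start. *Atf3* and *Id3* held TGACG on the strand opposite to that of the gene, 7 and 170 bases before the start, and *Id2* none of the 11 motifs. Start here means the RefSeq start, which for *Zfp36*, *Id2*, *Id3* and *Atf3* lies inside the gene as placed above. Of the 250 bases before it, annotated untranslated regions cover 250 in *Zfp36*, 250 in *Id3*, 161 in *Id2*, 7 in *Atf3* and 0 in the other 3, so that the matches in *Zfp36* and *Id3* lie in transcribed sequence. No glucocorticoid response element was matched in the 7 windows. A match describes letters in these windows and is no measure of binding.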

How the data were processed

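Polyadenylated RNA from 90 mouse livers was sequenced (labels: TruSeq RNA v2). The authors quantified reads with Salmon, with FastQC, MultiQC and DESeq2 also named in their processing notes, and deposited estimated counts per gene on mm10 in 4 tables, which are not normalized and need not be whole. The transcript annotation behind the counts is not given in the sources used here. Of 27654 gene IDs, 27244 had a symbol, and the other 410 hold 0.107% of counts and were kept under their ID. The 6 columns of VST values of the corticosterone experiment were not used.

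Estimated counts were rounded and tested in R 4.3.3 with edgeR 4.0.16 (TMM, filterByExpr at a minimum count of 10, quasi-likelihood F test), each of the 26 comparisons on its own libraries, with Benjamini-Hochberg adjustment over all genes tested and a threshold of 0.05. SE is the log2 fold change over the square root of F, and intervals of 95% are normal. CPM are after TMM within each table, with 2 as prior count on the log2 scale. Statements that groups did not overlap describe the values of single genes. How many of all genes did not overlap was not counted. Every library is a single mouse, and of 102 pairs within groups none was identical. Gene positions are from a GENCODE annotation of mm10. Scripts were tested on simulated counts.

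Alternatives were DESeq2 1.42.0, RLE factors, no filter on low counts, the replicate number as a block, each mouse left out in turn (each replicate number for the interactions and the tests over time), JTK_CYCLE on VST values for time, and the ZT12 WT livers of the time series for diet. Named beside the members are up to 4 called genes per direction and list with the largest log2 fold change, listed BMP targets (*Hamp*, *Smad6*, *Smad7*, *Atoh8*) and *Dusp1*, *Per1*, *Nr4a1*, *Btg2* and *Klf10*, the 5 genes most like each set (mean of at least 5 CPM), *Nr3c1*, *Fkbp5* and *Tsc22d3*. The motif set was chosen after the counts were known, before matches were seen except where said. The members and lists were chosen with earlier results of these data known.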

Additional observations from a re-analysis of the deposited data

Results flagged for a closer look

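In groups of 4 mice, where a single value far from the other 3 can be tested by its gap, *Atf3* was marked in 2 of 60 pairings of a member and a group. WT replicate 2 on control diet at ZT12 had 0.376 CPM while the other 3 mice were at 0, and GR LKO replicate 1 on control diet at ZT8 had 0.648 CPM while the other 3 were at 0. With the other 3 values at 0, any count above 0 is marked, so that neither mark shows a liver that stands apart. Chance marks about 1 in 20 groups without such zeros.

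The genotype effect differed among the 6 time points on control diet for *Id2* (edgeR adjusted p = 0.00973) and *Zfp36* (edgeR adjusted p = 0.0399). *Id2* was higher in GR LKO mice at ZT12 in 4 of 4 livers and *Zfp36* lower in 4 of 4, against all WT livers.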

How the results depend on the processing

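With 8 of 10 members called for diet, the count was 7 in DESeq2 and 6 to 9 when single mice were left out, but 3 of 8 tested in the ZT12 WT livers of the time series, where 4398 of all genes passed against 6155. There *Ier2*, not called in the diet comparison, had the opposite sign (-1.18 on the log2 scale), as did 16 named genes that had been called, at -2.08 for *Junb*, -0.14 for *Id1*, -1.22 for *Id3*, -0.56 for *Dusp1*, -1.55 for *Jund*, -0.90 for *Cebpb*, -1.02 for *Cebpd*, -0.30 for *Klf10*, -1.74 for *Smad6*, -0.12 for *Smad7*, -0.89 for *Atoh8*, -0.34 for *Hamp*, -0.71 for *Hspa1a*, -0.91 for *Hspa1b*, -0.44 for *Hspb1* and -0.13 for *Hsph1*. The cause was not tested.

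DESeq2 called more members for genotype, 1 at ZT8, 5 at ZT12, 1 at ZT16 and 1 at ZT20 on caloric restriction, and 1 at ZT8, 3 at ZT12 and 2 at ZT16 on control diet. Without a filter on low counts 1 member passed at ZT16 on control diet and 1 in place of 2 for genotype by time on control diet. JTK_CYCLE gave 3 members in WT and 1 in GR LKO mice on caloric restriction, in place of 6 and 3. RLE factors left every member count as reported.

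Single mice left out gave 2 to 6 members for CORT (in place of 7), 0 to 1 for genotype on caloric restriction at ZT16, 0 to 1 at ZT20, and 1 to 2 on control diet at ZT12. A replicate number left out at every time point gave 3 to 5 members over time in WT and 0 to 3 in GR LKO mice on caloric restriction, and 0 to 1 for genotype by time on control diet. The cause was not tested, and fewer mice were used in each.

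With the replicate number as a replicate block, 1 member passed for genotype at ZT16 on caloric restriction, 1 at ZT12 on control diet and 1 for genotype by time on control diet. It left 7 of 8 for diet, 2 of 3 for genotype at ZT12 on caloric restriction, and 5 of 6 in WT and 2 of 3 in GR LKO mice over time on caloric restriction. Whether the number pairs the mice is not settled. In none of 14 comparisons did all same-numbered pairs correlate above 0.1 in their deviations (r from -0.122 to 0.115 over genes, which are not independent replicates). That cut-off was chosen here, single pairs exceeded it, and weak correlations cannot show that mice were unpaired. For all genes the replicate block gave 534 in place of 935 for CORT, and 9, 13, 151, 889, 287 and 76 for genotype from ZT0 to ZT20 on caloric restriction in place of 61, 83, 308, 1795, 541 and 178, and 9, 1, 36, 101, 32 and 3 on control diet in place of 63, 23, 166, 238, 232 and 50.

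DESeq2 called 439, 435, 690, 2070, 929 and 663 of all genes at these times on caloric restriction and 411, 191, 362, 569, 634 and 298 on control diet. For the interaction it called 154, 38, 119, 477, 186 and 48 in place of 0, 0, 10, 123, 29 and 0, and for genotype by time 1314 in place of 696 on caloric restriction and 248 in place of 77 on control diet. JTK_CYCLE called 3786 genes in WT and 3536 in GR LKO mice on caloric restriction in place of 8123 and 7713, out of a larger set without the count filter. With single mice left out, the number of all genes was 206 to 1008 for CORT, 1 to 103, 13 to 127, 56 to 315, 899 to 1329, 234 to 346 and 16 to 194 for genotype from ZT0 to ZT20 on caloric restriction, and 3 to 81, 1 to 13, 56 to 160, 137 to 199, 84 to 183 and 12 to 48 on control diet. With a replicate number left out it was 0 to 0, 0 to 1, 3 to 11, 2 to 79, 6 to 20 and 0 to 8 for the interaction from ZT0 to ZT20, 4984 to 5729 over time in WT and 4413 to 5894 in GR LKO mice on caloric restriction, 4064 to 4906 and 2699 to 4761 on control diet (in place of 6244 and 5231), and for genotype by time 89 to 296 in restricted and 5 to 48 in control mice. The cause was not tested.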
